A study of Mus musculus with 9 samples.

Results

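Lipid droplet and fatty acid oxidation genes are described here in mouse T cells kept in 3 media, as 6 genes chosen by symbol, Plin2, Hilpda, Cpt1a, Ucp2, Acox3 and Acaa1a, out of 2889 genes in the sample table. All 6 were found once each, and all 6 passed the filter on low values, a mean of at least 1 normalized count, which 2868 genes passed. The cells were polyclonal CD3+ T cells taken by negative selection from spleens of wild-type C57BL/6 mice. Cells of 3 mice were each split over unconditioned medium (RPMI), stromal cell conditioned medium and adipocyte conditioned medium, held there for 4 h, and profiled by RNA-seq, giving 9 samples. No gene was altered and no receptor stimulus is labelled. The labels do not say what animal or line the adipocytes and stromal cells came from, nor how old the mice were.

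Fatty acids that enter a cell are coupled to coenzyme A and then either esterified into triglyceride, which is stored in lipid droplets, or burned. Droplets carry coat proteins that guard the stored fat from lipases. Burning starts at the outer mitochondrial membrane, where CPT1 makes acylcarnitines that can cross into the matrix, while very long and branched chains are first shortened in peroxisomes. Resting T cells draw on fatty acid oxidation, and several genes of droplet coating and of the carnitine step are known targets of PPAR nuclear receptors, which fatty acids bind.

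The 6 genes were picked with earlier values of these same samples known, so their differences between media are described without a test. The sample table is itself a selection, since all 2889 of its genes are also in 1 or both of the authors' lists of genes changed by a conditioned medium. Of all genes tested by limma at an adjusted p under 0.05, 97.2% were called when adipocyte medium was set against unconditioned medium (33.8% higher, 63.4% lower). For stromal against unconditioned medium 57.7% were called (21.1% higher, 36.6% lower), and for adipocyte against stromal medium 91% (33.8% higher, 57.2% lower). The first and second of these comparisons share the unconditioned samples. The members had 3 higher and 3 lower calls in the first comparison, 0 and 4 in the second and 3 and 3 in the third, from which nothing is read. All values are read counts that the authors scaled by 1 factor per sample, and the median gene of the table was at -1.03 on the log2 scale in adipocyte against unconditioned medium, -0.17 in stromal against unconditioned medium and -0.60 in adipocyte against stromal medium. Rescaling by the median of ratios over the table's own genes added a median of 0.93, 0.36 and 0.57 to the log2 differences in these comparisons, and less for some genes of low counts. Values after this rescaling are given beside the authors' scaling for the gene lists and named genes whose call it ended. For the members they are given in the paragraphs below or in the last section.

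Reads on the listed genes came to between 6522742 and 13758643 per sample, and the members had 534 to 36973 reads each. The counting error of a member's value was thus 0.52% to 4.33%, while the coefficient of variation over the 3 mice of a group ran from 0.957% to 18.6%. The samples are bulk RNA, in which fewer cells of a type and less RNA per cell cannot be told apart.

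Both lipid droplet genes, Plin2 and Hilpda, were several-fold higher in adipocyte medium. On the authors' scaling their log2 differences in stromal against unconditioned medium were small, at 0.10 and -0.33. Plin2 (ENSMUSG00000028494) encodes perilipin 2, the coat protein found on droplets of most cell types. Its normalized counts in mice 1, 2 and 3 were 780, 745 and 750 in unconditioned medium, 935, 744 and 774 in stromal medium, and 4418, 3233 and 4179 in adipocyte medium. The adipocyte samples lay apart from all others, and the stromal samples overlapped the unconditioned ones, with only the stromal sample of mouse 1 standing higher. The adipocyte mean was 5.20 times the unconditioned mean, a log2 difference of 2.36 (SE 0.13, n = 3 against 3), with 2.50, 2.12 and 2.48 in the single mice. In stromal medium the log2 difference was 0.10 (SE 0.13), and in adipocyte against stromal medium it was 2.26 (SE 0.13). After rescaling these were 0.46 and 2.83, and adipocyte against unconditioned medium was at 3.29. Only 139 of the 2868 genes had a larger log2 difference than Plin2 in adipocyte against unconditioned medium.

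Hilpda (ENSMUSG00000043421) encodes a small droplet protein that is induced by low oxygen and inhibits the triglyceride lipase ATGL. Unconditioned samples of mice 1, 2 and 3 had 773, 921 and 842 normalized counts of Hilpda, stromal samples 696, 680 and 639, and adipocyte samples 4923, 3405 and 4007. The 3 groups of Hilpda values did not overlap, with stromal samples lowest and adipocyte samples highest. The adipocyte mean was 4.86 times the unconditioned mean (log2 difference 2.27, SE 0.13) and 6.12 times the stromal mean (2.6, SE 0.13). The lower Hilpda level in stromal than in unconditioned medium, a log2 difference of -0.33 (SE 0.13), depended on the scaling. This difference was 0.03 (SE 0.14) after rescaling, within its SE of 0. Mouse 2 had the smallest difference from its own unconditioned sample in adipocyte medium for both droplet genes, 1.88 for Hilpda against 2.67 and 2.25 in mice 1 and 3.

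**Figure D1:**
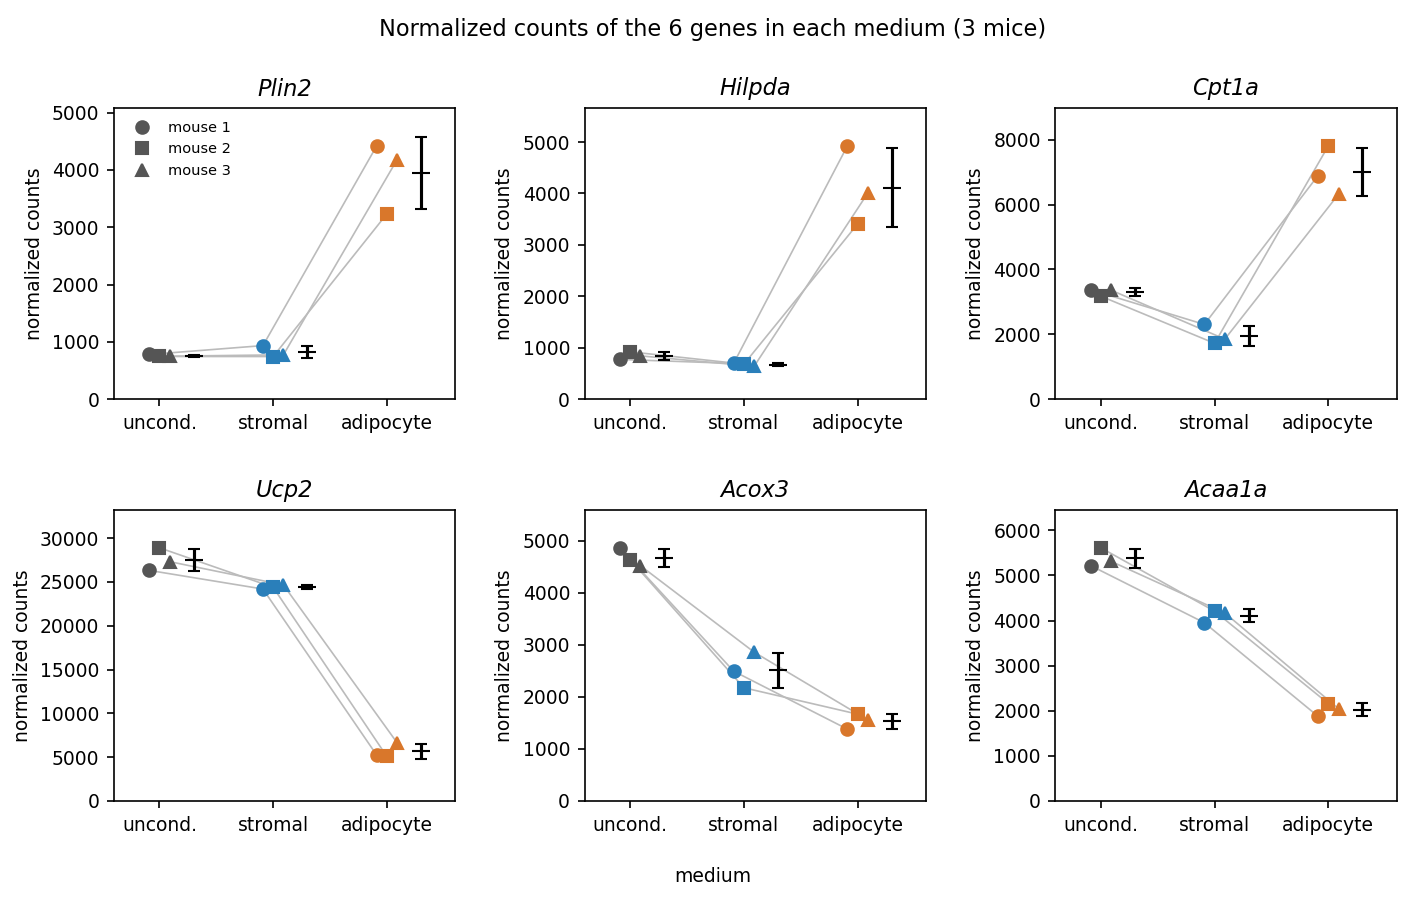
Normalized counts of the 6 genes (vertical axes, from 0) in the 3 media (horizontal axes), with 1 symbol per mouse, grey lines joining samples of a mouse, and the mean with its SD (n = 3) beside each group. Plin2, Hilpda and Cpt1a are highest in all 3 adipocyte samples, and Ucp2, Acox3 and Acaa1a are lowest there.

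Start-site windows of 4 members are shown, because they belong to the genes with the largest differences in each direction and to the carnitine gene, and carry short motifs known from lipid and oxygen control. They come from RefSeq on GRCm38.p6, each from 250 bases before to 50 bases after an annotated start; all 6 genes matched an entry, Hilpda with 2 starts, of which the one shown is the further downstream. Capitals mark matches, on either strand, to ACGTG or GCGTG (core of hypoxia response elements, of which ACGTG is also part of the E-box CACGTG) and to AGGTCA (the core site of nuclear receptors such as PPAR). The Plin2 window is chr4:86670010-86670309 on the minus strand, the Hilpda window chr6:29272376-29272675, the Cpt1a window chr19:3323051-3323350 and the Ucp2 window chr7:100493108-100493407, these 3 on the plus strand.
Plin2: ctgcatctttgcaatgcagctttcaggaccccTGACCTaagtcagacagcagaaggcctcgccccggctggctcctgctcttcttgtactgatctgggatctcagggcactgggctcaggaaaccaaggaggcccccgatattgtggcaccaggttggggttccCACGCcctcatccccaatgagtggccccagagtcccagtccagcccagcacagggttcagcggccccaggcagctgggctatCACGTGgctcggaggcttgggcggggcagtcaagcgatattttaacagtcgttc
Hilpda: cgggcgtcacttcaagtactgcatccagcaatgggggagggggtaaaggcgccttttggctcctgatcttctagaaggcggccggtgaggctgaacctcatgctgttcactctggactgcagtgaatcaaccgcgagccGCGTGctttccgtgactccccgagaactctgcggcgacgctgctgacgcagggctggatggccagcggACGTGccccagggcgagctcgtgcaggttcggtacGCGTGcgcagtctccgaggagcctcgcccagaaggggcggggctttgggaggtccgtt
Cpt1a: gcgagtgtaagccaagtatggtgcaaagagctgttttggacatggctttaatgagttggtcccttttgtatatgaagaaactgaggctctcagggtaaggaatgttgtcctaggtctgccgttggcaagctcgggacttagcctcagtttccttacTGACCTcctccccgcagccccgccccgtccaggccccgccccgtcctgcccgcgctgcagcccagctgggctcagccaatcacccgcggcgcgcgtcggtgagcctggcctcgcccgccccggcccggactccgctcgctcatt
Ucp2: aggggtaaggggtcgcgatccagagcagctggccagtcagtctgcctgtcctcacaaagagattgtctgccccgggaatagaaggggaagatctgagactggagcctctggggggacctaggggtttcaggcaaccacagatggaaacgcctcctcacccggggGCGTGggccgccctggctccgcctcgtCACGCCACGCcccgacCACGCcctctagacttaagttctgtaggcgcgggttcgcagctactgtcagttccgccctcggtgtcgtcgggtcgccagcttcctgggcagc

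Plin2 held the palindromic E-box CACGTG across its start site, a GCGTG match beginning 86 bases upstream and an AGGTCA match beginning 218 bases upstream. Hilpda held 2 GCGTG matches and 1 ACGTG match in this window, and Cpt1a held 1 AGGTCA match. Ucp2, which was lower in adipocyte medium, held 4 GCGTG matches. The Acox3 and Acaa1a windows held none of these letters. Among 32544 such windows of mouse genes, 44.0% held ACGTG or GCGTG, 7.17% held CACGTG and 16.2% held AGGTCA, a background against which the matches are only described. The full PPAR direct repeat of this core was in 0.0399% of windows and in 0 of the members' windows.

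Cpt1a had a different order of media, with adipocyte medium above and stromal medium below the unconditioned level. It (ENSMUSG00000024900) encodes the CPT1 form found in most tissues outside muscle, the enzyme that commits long-chain fatty acids to the mitochondrion. Unconditioned samples of mice 1, 2 and 3 had 3377, 3176 and 3362 normalized counts of Cpt1a, stromal samples 2305, 1723 and 1852, and adipocyte samples 6899, 7810 and 6319. None of the 3 groups overlapped another. The adipocyte mean was 2.12 times the unconditioned mean (log2 difference 1.08, SE 0.11) and 3.58 times the stromal mean (1.84, SE 0.11). The stromal mean was 0.593 of the unconditioned mean (log2 difference -0.76, SE 0.11), and each mouse showed this, at -0.55, -0.88 and -0.86. After rescaling the Cpt1a differences were 2.01 in adipocyte and -0.41 in stromal against unconditioned medium, of the same sign. Mouse 2, lowest of the 3 for Plin2 and Hilpda in adipocyte medium, was highest for Cpt1a.

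Ucp2 was several-fold lower in adipocyte medium and little different in stromal medium. It (ENSMUSG00000033685) encodes uncoupling protein 2, a carrier of the inner mitochondrial membrane that is abundant in immune cells. In mice 1, 2 and 3 its normalized counts were 26317, 28895 and 27314 in unconditioned medium, 24190, 24387 and 24656 in stromal medium, and 5248, 5081 and 6647 in adipocyte medium. The adipocyte samples were far below both other groups, and the stromal samples were all slightly below the unconditioned ones without overlap. The unconditioned mean was 4.86 times the adipocyte mean, a log2 difference of -2.29 (SE 0.10), and 213 of the 2868 genes were lower still on this scale. In stromal against unconditioned medium the log2 difference was -0.17 (SE 0.10), the same as the table's median gene, and it turned to 0.19 after rescaling. Against stromal medium the adipocyte samples were at -2.12 (SE 0.10), and after rescaling at -1.55. Against unconditioned medium they were at -1.36 after rescaling.

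Both peroxisomal genes were lower in stromal than in unconditioned medium and lower again in adipocyte medium. Acox3 (ENSMUSG00000029098) encodes the acyl-CoA oxidase that opens the oxidation of branched chains in peroxisomes. Its normalized counts in mice 1, 2 and 3 were 4868, 4642 and 4524 in unconditioned medium, 2496, 2177 and 2862 in stromal medium, and 1382, 1670 and 1559 in adipocyte medium. No 2 groups overlapped. The stromal mean was 0.537 and the adipocyte mean 0.329 of the unconditioned mean, with log2 differences of -0.91 and -1.61 (both SE 0.11). After rescaling these differences were -0.55 and -0.68. In adipocyte against stromal medium Acox3 was at -0.70 (SE 0.11), close to the median gene, and at -0.13 after rescaling.

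Acaa1a (ENSMUSG00000036138) encodes peroxisomal thiolase, which cuts off the shortened chain at the end of each round. Unconditioned samples of mice 1, 2 and 3 had 5218, 5613 and 5312 normalized counts of Acaa1a, stromal samples 3952, 4208 and 4168, and adipocyte samples 1877, 2161 and 2048. Again no 2 groups overlapped, and the spread between mice was narrow. The adipocyte mean was 0.377 of the unconditioned mean (log2 difference -1.41, SE 0.08), and the stromal mean 0.764 of it (-0.39, SE 0.08). After rescaling these differences became -0.48 and -0.03. Against stromal medium the adipocyte samples were at -1.02 (SE 0.08), and at -0.45 after rescaling. Acaa1a has a close paralog, Acaa1b, with which it shares 12.4% of the 50-base words of its annotated transcripts, so its reads may be partly uncertain. Acaa1b was at -1.42 in adipocyte against unconditioned medium (SE 0.16, limma adjusted p = 2.47e-06).

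Groups of members without overlap were thus 3 higher and 3 lower in adipocyte against unconditioned medium, where 33.6% and 63.4% of all genes were higher and lower without overlap. In stromal against unconditioned medium 0 members were higher and 5 lower without overlap, against 25.1% and 44.2% of all genes. In adipocyte against stromal medium 3 members were higher and 3 lower without overlap, against 33.4% and 56.2%. The strand setting of the counting is not stated, and in the GENCODE M21 annotation 3 members share exon bases with a gene on the opposite strand, 290 bases with Myd88 for Acaa1a, 305 with Dnajb13 for Ucp2 and 700 with an antisense transcript for Acox3. These are 6.57%, 4.36% and 6.08% of each member's exon bases, and reads there cannot be assigned with certainty. Reads are likewise uncertain for 1.36% to 13.4% of the exon bases of Acad9, Acsl1, Acss1, Agpat2, Cdc23, Dpp4, Irs2, Pcyt1a, Pprc1, Slc25a10, Slc25a11 and Zbtb21, named further on. For Acad9 and Zbtb21 the overlapping gene is on the same strand, which no strand setting would separate. In the authors' deposited table for adipocyte medium the log2 fold changes were 2.36 for Plin2, 2.27 for Hilpda, 1.08 for Cpt1a, -2.29 for Ucp2, -1.60 for Acox3 and -1.41 for Acaa1a. The authors' deposited table for stromal medium, which tests for a change beyond 1.5-fold, lists 0 of the 6.

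**Figure D2:**
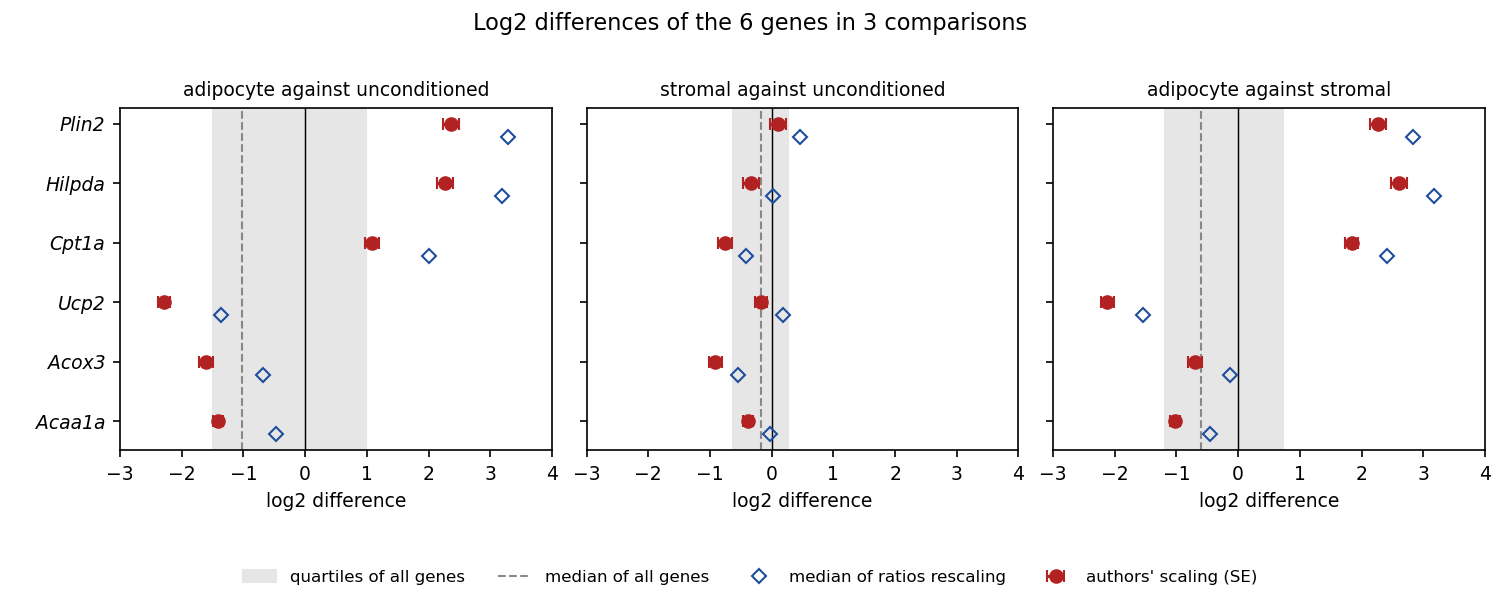
Log2 difference (horizontal axes) of each gene in 3 comparisons, with filled circles and SE bars on the authors' scaling, open diamonds after rescaling by the median of ratios, a grey band from the lower to the upper quartile of all 2868 genes and a dashed line at their median. Plin2 at 2.36, Hilpda at 2.27 and Ucp2 at -2.29 lie outside the band in adipocyte against unconditioned medium, while Acaa1a at -1.41 lies inside it.

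The other genes of these pathways were read from 11 lists holding 271 non-members, of which 65 were in the sample table. In adipocyte against unconditioned medium 12 of the 65 rose, 52 fell and 1 was not called, with a median log2 difference of -1.16 against -1.03 over all genes. In stromal medium 8 rose, 28 fell and 29 were not called, with a median of -0.20 against -0.17. Over all genes 33.8% were called higher and 63.4% lower in adipocyte medium, and 21.1% and 36.6% in stromal medium. The single lists below are only described beside these shares. Since the authors chose the table's genes on these samples, neither count of the 65 genes is independent evidence of direction. The adjusted p values printed for single genes carry the same limit. Genes named from the lists were also picked by their smallest adjusted p, unless said otherwise. After rescaling, the counts were 14 higher and 29 lower in adipocyte medium and 26 higher and 12 lower in stromal medium.

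Of 29 genes beside Plin2 and Hilpda on the list of droplet coat and assembly, 3 were in the table. In adipocyte medium 2 of these rose and 1 fell, where 33.8% of all genes were called higher. After rescaling 2 were higher, 0 lower and 1 not called. Dgat1, for the enzyme of the last step of triglyceride synthesis, had 13342 ± 1596 normalized counts (SD, n = 3) without conditioning and 44272 ± 9464 with adipocyte medium, a log2 difference of 1.71 (SE 0.15, limma adjusted p = 3.11e-07). It was at 13014 ± 1612 in stromal medium (log2 difference -0.04, SE 0.15, adjusted p = 0.849). Pcyt1a, for the enzyme that sets the supply of phosphatidylcholine for droplet surfaces, rose by 1.12 (SE 0.12, limma adjusted p = 1.15e-06). Agpat2, for an earlier acyltransferase of the same synthesis, fell by 1.03 in adipocyte medium (limma adjusted p = 3.18e-05; -0.10 after rescaling) and rose by 0.81 in stromal medium (adjusted p = 0.00077). Of 11 genes on the lipolysis list 2 were in the table, and both fell in adipocyte medium, Lipa, the lysosomal acid lipase gene, by 1.04 and Pnpla7, a lysophospholipase gene, by 1.06, and after rescaling neither was called (-0.12 and -0.13).

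In the carnitine shuttle the carrier gene of the inner membrane went with Cpt1a in adipocyte medium and the next enzyme did not, while in stromal medium this was not so. Slc25a20, the carrier that takes acylcarnitines across the inner membrane, went from 2383 ± 193 in unconditioned to 5750 ± 283 in adipocyte medium (log2 difference 1.27, SE 0.09, limma adjusted p = 4.92e-08) and was at 2374 ± 181 in stromal medium. Cpt2, which returns the acyl group to coenzyme A inside the matrix, fell from 1619 ± 57.5 to 662 ± 39.9 in adipocyte medium (log2 difference -1.29, SE 0.12, limma adjusted p = 4.34e-07; -0.36 after rescaling). In stromal against unconditioned medium, where Cpt1a was at -0.76, Slc25a20 was at 0.00 (SE 0.09, limma adjusted p = 0.966). Cpt2 was lower there, like Cpt1a, at -0.49 (SE 0.12, limma adjusted p = 0.00374), and was not called after rescaling (-0.14). The difference between these genes was not tested.

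Genes of the oxidation cycle itself were mostly lower on the authors' scaling. Of 19 mitochondrial beta oxidation genes in the table, of 33 on the list, 17 fell, 1 rose and 1 was not called in adipocyte medium. Their median was -1.16, against -1.03 over all genes, of which 63.4% were called lower. In stromal medium 10 fell and 9 were not called, where 36.6% of all genes were called lower. Acad9 and Acadsb, for acyl-CoA dehydrogenases, were at -1.33 and -1.18 in adipocyte medium, and Ech1, for an isomerase that handles unsaturated chains, was at -1.09 (-0.16 after rescaling, where it was no longer called). The gene that rose, Etfdh, named here after its value was seen, encodes the oxidoreductase that passes electrons from acyl-CoA dehydrogenases to ubiquinone. It went from 5377 ± 130 to 12362 ± 1673 (log2 difference 1.19, SE 0.11, limma adjusted p = 4.91e-07). The gene not called, Pcca, for a subunit of propionyl-CoA carboxylase, was also seen first; it was at 0.04 in adipocyte medium (adjusted p = 0.711) and fell by 1.25 in stromal medium (limma adjusted p = 3.44e-06). After rescaling 9 of the 19 were lower, 2 higher and 8 not called in adipocyte medium, with a median of -0.24. In stromal medium the balance turned, with 6 higher, 3 lower and 10 not called after rescaling and a median of -0.02.

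Peroxisomal genes beside Acox3 and Acaa1a were lower in adipocyte medium on the authors' scaling. All 14 on the oxidation list that could be tested, of 31, fell, where 63.4% of all genes were called lower. Their median was -1.21, against -1.03 over all genes. In stromal medium 10 fell, 0 rose and 4 were not called, where 36.6% of all genes were called lower. After rescaling 8 were lower, 1 higher and 5 not called in adipocyte medium (median -0.29), and 5 lower, 2 higher and 7 not called in stromal medium (median -0.09). The 1 higher in adipocyte medium was Phyh, for the first enzyme of alpha oxidation, named after its value was seen, at -0.71 before and 0.22 after rescaling. Tysnd1, for the protease that processes peroxisomal enzymes, was at -1.35, and Scp2, for a sterol carrier with thiolase activity, at -1.24. Scp2 also fell in stromal medium, to a log2 difference of -0.51 (limma adjusted p = 3.1e-04), and was not called there after rescaling (-0.15). All 4 peroxisome assembly genes in the table fell in adipocyte medium, Pex10 by 1.34, Pex19 by 1.08, Pex2 by 0.98 and Pex7 by 0.93, and in stromal medium limma called 0 of these 4, with adjusted p values of 0.355, 0.262, 0.544 and 0.333. After rescaling only Pex10 was called lower in adipocyte medium (-0.42), while Pex19, Pex2 and Pex7 were at -0.16, -0.06 and -0.01. In stromal medium 3 of the 4 were called higher after rescaling and 0 lower.

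Of 13 genes on the list of carriers related to Ucp2, 3 were in the table, and all 3 fell in adipocyte medium, whereas the carnitine carrier gene Slc25a20, on another list, rose. Slc25a10, the dicarboxylate carrier gene, fell from 806 ± 51.2 to 131 ± 27.4 in adipocyte medium (log2 difference -2.63, SE 0.17, limma adjusted p = 3.1e-08). Slc25a11, the oxoglutarate carrier gene, and Slc25a1, the citrate carrier gene, fell by 2.01 and 1.53. After rescaling they were at -1.71, -1.09 and -0.60, and all 3 were called lower.

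Of 38 uptake and activation genes on the list, 6 were in the table, and 5 of these fell in adipocyte medium. Acss1, for mitochondrial acetyl-CoA synthetase, fell by 2.02, Acsbg1 and Acsl1, for acyl-CoA synthetases, by 1.77 and 1.16, and Slc27a4, for a fatty acid transport protein, by 1.68. The 1 that rose, Fabp5, a cytoplasmic fatty acid binding protein gene, named after its value was seen, rose by 1.23. After rescaling 4 of the 6 were lower, 1 higher and 1, Acsl1, not called (-0.23). Among regulators 8 of 44 on the list were in the table, of which 3 rose and 5 fell, and after rescaling 3 were higher, 3 lower and 2 not called. Pprc1, for a coactivator related to PGC-1, rose by 1.33 and Tfe3, for a lysosome and lipid regulating transcription factor, by 0.91; the third was Stk11, for the kinase LKB1, named after its value was seen (0.88). Among those lower, the pyruvate dehydrogenase kinase genes Pdk1 and Pdk2 fell by 1.64 and 1.77. Of 32 genes on the hypoxia target list, 4 were in the table, and these 4 rose in adipocyte medium beside Hilpda, also after rescaling. Over all genes 33.8% were called higher there. The list is 1 choice of genes, and Pdk1, which fell, was on the regulator list and not on it. Vegfa, the vascular growth factor gene, went from 212 ± 31.0 to 1081 ± 174 (log2 difference 2.34, SE 0.16, limma adjusted p = 4.89e-08), and Kdm3a, a histone demethylase gene, rose by 1.00. Vegfa also rose in stromal medium, by 0.97 (adjusted p = 2.39e-04), where Hilpda was at -0.33.

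**Figure D3:**
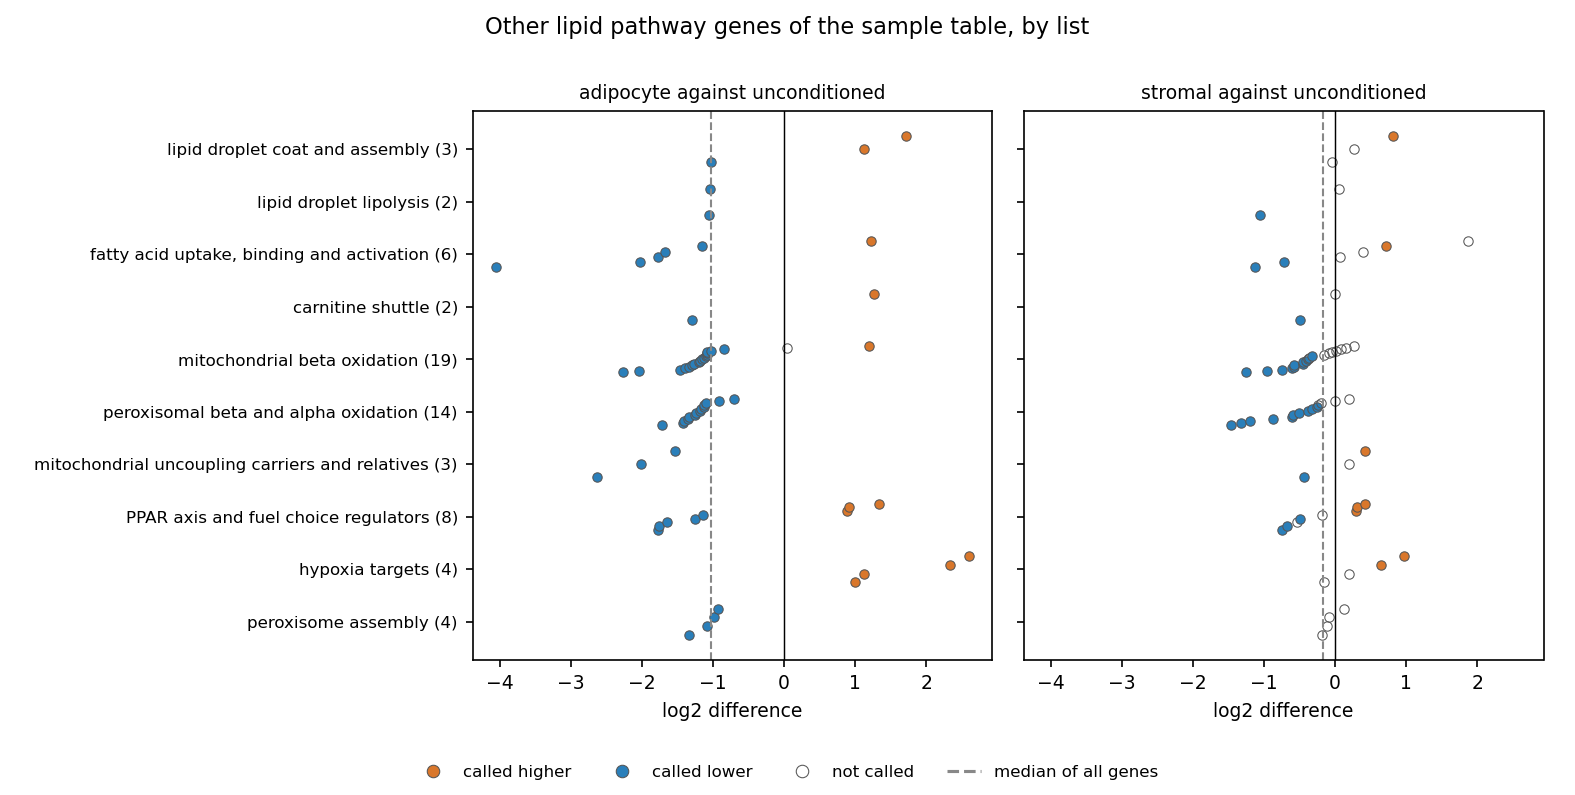
Log2 difference (horizontal axes) of each of the 65 other lipid pathway genes in the sample table, by list with the number of genes in brackets, in adipocyte and stromal against unconditioned medium; orange points were called higher, blue lower and open not called by limma, and the dashed line is the median of all genes. In adipocyte medium 17 of 19 mitochondrial and 14 of 14 peroxisomal oxidation genes were called lower, against 12 genes of all lists called higher. Over all genes 63.4% were called lower and 33.8% higher there.

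Genes with the most similar pattern were sought by the Pearson correlation of log2 values over the 9 samples, which share 3 mice and fall into 3 media, so the values describe this table only. The closest to Plin2 were Zbtb21 (r = 0.999), Ubxn2a (r = 0.998) and Fbxo30 (r = 0.997), and the closest to Hilpda were Arl5b (r = 0.996), Slc41a1 (r = 0.994) and Sbds (r = 0.994). Cpt1a was matched less closely, by Dtx4 (r = 0.981), Klf11 (r = 0.980) and Irs2 (r = 0.979). These 3 had the same order of media as Cpt1a, as with Klf11 at a mean of 1190 normalized counts in unconditioned, 562 in stromal and 5875 in adipocyte medium. Ucp2 was closest to Dbnl, Os9 and Atf6b (r = 0.997, 0.996 and 0.996). Acox3 was closest to Zmat1, Mtg2 and Dpp4 (r = 0.998, 0.997 and 0.996), and Acaa1a to Gatd1, Cdc23 and AW209491 (r = 0.997, 0.997 and 0.996). Dpp4, which encodes the surface protease CD26, was at means of 13540, 6247 and 3573 in unconditioned, stromal and adipocyte medium, the same stepwise order as Acox3.

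On the authors' scaling, summed markers of T, B, macrophage and monocyte, neutrophil and dendritic cells were lower in adipocyte than in unconditioned medium. The median gene of the table was at a log2 difference of -1.03 there. The factors of the median of ratios rescaling were 1.3077 to 1.3523 in unconditioned and 0.68429 to 0.72332 in adipocyte samples. Dividing by them turns the dendritic cell sums higher in adipocyte medium, while the other sums of these lists stay lower. Of the 6 dendritic cell markers only 1, Xcr1, was called higher after rescaling (2.46). Of the others 4 were lower and 1 was not called, and the median of the 6 was -1.74. Xcr1 had a mean of 386 in adipocyte medium and so makes up most of that sum. The T cell label was checked on 5 of 20 markers that are in the table, Cd3e, Cd3g, Cd8a, Cd8b1 and Bcl11b, whose summed normalized counts were 103410 to 115370 in unconditioned, 88751 to 91890 in stromal and 42462 to 44070 in adipocyte medium. Sums of 6 of 20 B cell markers were 2004 to 2665 in unconditioned, 1488 to 2665 in stromal and 486 to 545 in adipocyte medium. Sums of 8 of 24 macrophage and monocyte markers, cells that also carry lipid droplets, were 3975 to 7809, 3879 to 9281 and 667 to 1129. Neutrophil markers (8 of 14) summed to 4766 to 5773, 3961 to 4944 and 1855 to 2373, dendritic cell markers (6 of 10) to 670 to 763, 620 to 790 and 414 to 536, and natural killer cell markers (2 of 10) to 2004 to 2090, 756 to 890 and 1296 to 2750. Single markers went against these sums, with the dendritic cell marker Xcr1 at a log2 difference of 1.54 and the neutrophil marker Ngp at 1.57 in adipocyte against unconditioned medium. The macrophage and monocyte marker Cd14 was at 0.34 there (limma adjusted p = 0.406) and at 1.99 in stromal medium (limma adjusted p = 0.00086). Xcr1, Ngp and Cd14 were named after their values were seen. The natural killer cell markers differed from each other in adipocyte against unconditioned medium, Klre1 at 1.12 and Prf1 at -0.38 (limma adjusted p = 1.83e-05 and 0.181). The single erythroid marker, Car1, was at 259 to 430, 539 to 1776 and 74.8 to 146. No marker named in these lists was at 0 in all 3 samples of a medium. On the authors' scaling, Plin2 and Hilpda were thus higher where the summed macrophage and monocyte markers were lower. On the same scaling, Ucp2, Acox3 and Acaa1a were lower where the sums of T, B and myeloid markers were lower. The part of these shifts in the members' differences was not tested. Of 12 adipocyte markers only Lpl was in the table, at 28.6 to 105 in unconditioned, 156 to 193 in stromal and 0 to 12.7 in adipocyte medium, and 0 of 12 stromal cell markers were; the others were not analysed here.

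**Figure D4:**
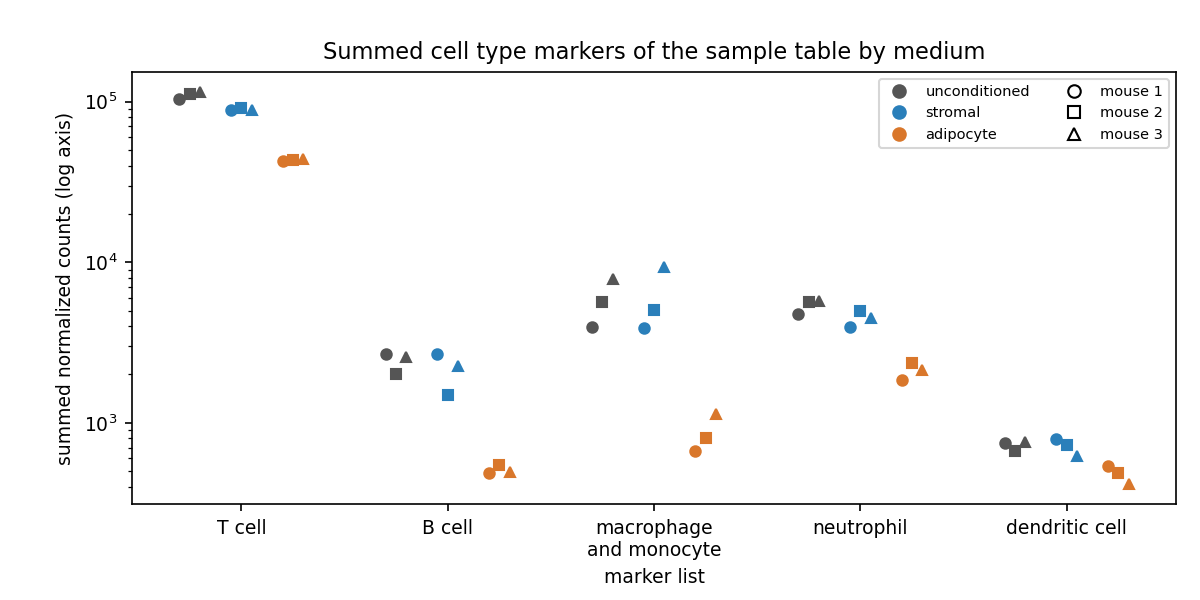
Summed normalized counts (log vertical axis) of the markers of 5 cell types that are in the sample table, with 1 point per sample, coloured by medium and shaped by mouse. On the authors' scaling, all 3 adipocyte samples lie below the unconditioned samples for each list, with T cell sums of 42462 to 44070 against 103410 to 115370.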

How the data were processed

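RNA of 9 samples of splenic T cells, 3 mice in each of 3 media, was made into cDNA with SMART-seq v4 and Nextera XT libraries, per the labels' protocols. Per the submitters' processing notes, the tools were DESeq2, featureCounts, FastQC and Trimmomatic and the builds named were hg38, GRCh38 and GRCm39, with aligner, annotation and strand setting not given in the sources used here. A deposited sample table holds a signal per gene, read counts that the authors divided by 1 factor per sample: whole reads were recovered for 100% of values (tolerance 0.001 reads). Per the file headers, the authors' tables hold log2 fold changes, a Wald score and p-values.

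Log2(value + 1) was fitted with limma-trend (limma 3.58.1, R 4.3.3) for the 2868 genes whose mean reached 1, all 9 samples in 1 fit, medium as the only factor, with two-sided p-values and Benjamini-Hochberg adjustment over all genes tested at 0.05. Fold changes of low genes are understated on this scale. The deposited values called for limma; a count model had been planned only for raw counts. Replicates differed by more than sampling noise (chi-square per degree of freedom 10.22 to 96.65), so no library counted as a duplicate.

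The labels give the mouse of each sample, so samples of a mouse are paired; correlations of their deviations from group means were -0.18 to 0.35, and 8 of 9 were above 0. The mouse as a block was an alternative, as were other pseudocounts, filters, scalings, DESeq2 1.42.0 and edgeR 4.0.16 on recovered reads, and leaving out samples. The fitting code was tested on simulated data. An exact permutation test of 3 against 3 cannot go below 0.1 and was not used.

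The 6 members and all lists were chosen with earlier results of these data known. Other genes are named by rule: up to 4 per lipid list with the smallest limma adjusted p outside the lowest 25% of means, and the 3 genes most correlated with each member. Some genes that this rule names are not reported here. Promoter sequences are RefSeq's on GRCm38.p6, used apart from the authors' build.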

Additional observations from a re-analysis of the deposited data

How the results depend on the processing

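Each value was recomputed under 22 alternatives. Several of them cannot move a member's difference: the mouse as a block, other filters on low values and fitting only the groups compared. The same is true of leaving out a sample of the group outside a comparison. The count of values below that moved little therefore overstates how stable the differences are. For the 18 member differences, 363 of 396 recomputed values moved by less than the spread between mice, 31 moved further and 2 turned sign; all but 1 of those came from rescaling over the listed genes, and the other was Acaa1a in stromal against unconditioned medium without unconditioned replicate 2 (range without single samples or replicates -0.41 to -0.36). Rescaling by the median of ratios, or by TMM, gave in adipocyte against unconditioned medium 3.29 or 2.81 for Plin2, 3.19 or 2.72 for Hilpda, 2.01 or 1.53 for Cpt1a, -1.36 or -1.84 for Ucp2, -0.68 or -1.16 for Acox3 and -0.48 or -0.96 for Acaa1a. In stromal against unconditioned medium the median of ratios gave 0.46 for Plin2, 0.03 for Hilpda and -0.41 for Cpt1a. It gave 0.19 for Ucp2, -0.55 for Acox3 and -0.03 for Acaa1a. There TMM gave 0.24 for Plin2, -0.19 for Hilpda, -0.03 for Ucp2 and -0.25 for Acaa1a. Hilpda and Ucp2 thus turned sign under the median of ratios and not under TMM. In adipocyte against stromal medium they gave 2.83 or 2.57 for Plin2, 3.17 or 2.90 for Hilpda, -1.55 or -1.81 for Ucp2, -0.13 or -0.40 for Acox3 and -0.45 or -0.71 for Acaa1a, and the median of ratios gave 2.41 for Cpt1a. Over all genes the median of ratios left 1047 called lower in adipocyte against unconditioned medium (1818 before) and 1090 in adipocyte against stromal medium (1641 before), and gave 1129 higher and 561 lower in stromal against unconditioned medium (606 and 1049 before). For the 65 other lipid genes it gave 29 lower in adipocyte medium (52 before), and 26 higher and 12 lower in stromal medium (8 and 28 before), where TMM gave 14 higher. Under it Acad9, Cat and Tysnd1 turned to 0.04, 0.10 and 0.03 in stromal against unconditioned medium. Both rescalings are built on genes chosen for changing and bring their centre towards 0 by construction. With the mouse as a replicate block, 967 genes were called higher and 1821 lower in adipocyte medium and 614 and 1051 in stromal medium; among the named lipid genes the block ended 1 call, Slc25a10 in stromal medium (0.42, limma adjusted p = 0.0606). Without single samples or replicates the lipid genes called in adipocyte medium stayed at 12 higher and 52 lower, and in stromal medium ran from 6 to 10 higher and 21 to 29 lower. DESeq2 and edgeR on recovered reads called 969 and 967 genes higher and 1817 and 1817 lower in adipocyte medium. Depth was not limiting for the members, whose counting error was at most 4.33%.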
